A study of Mus musculus with 5 samples.

Results

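Major histocompatibility complex (MHC) class II presentation was followed through 10 genes of the 28693 features counted in lung single-cell RNA sequencing libraries. They were H2-Aa, H2-Ab1 and H2-Eb1, which encode chains of the class II molecules that show peptides to CD4 T cells, Cd74, the invariant chain, H2-DMa, H2-DMb1 and H2-DMb2, the chains of the peptide exchange factor H2-DM, H2-Oa and H2-Ob, the chains of its inhibitor H2-DO, and Ciita, the transactivator of the family. The members were taken by gene symbol, and all 10 were found. The cells came from the lungs of mice of the genotype Ms4a3-CreER;R26-tdT, on a mixed C57BL6/129 background, in which a tamoxifen-activated Cre made from the monocyte progenitor gene Ms4a3 switches on the red reporter tdT for good. All mice received tamoxifen, and the groups were PBS without injury (sham) or intratracheal bleomycin followed by collection on day 3, day 7, day 14 or day 28. Each group was 1 library of perfused, collagenase-digested lung labelled as immune cells. The study as a whole included adult mice of both sexes from 7 weeks of age. The number, age and sex of the mice behind each library were not given in the sources used here. Because no group had a second library, days were described and never tested, and tests compared cell types across libraries.

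Class II chains pair in the endoplasmic reticulum, where the invariant chain Cd74 fills their groove and guides them to endosomes. There cathepsins cut Cd74 down to a short peptide, H2-DM exchanges that peptide for ones made from engulfed protein, and H2-DO holds H2-DM back. Dendritic cells and B cells carry class II molecules constitutively, whereas macrophages are known to raise them through Ciita when they meet interferon gamma. In the lung, alveolar macrophages (AMs) of the airspaces are known as poor presenters, and interstitial macrophages (IMs) as better ones.

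The genes sit close together, apart from Ciita, on chromosome 16, and Cd74. In the mm10 annotation, the other 8 were protein-coding genes of chromosome 17 that ran, in order, from H2-Oa at 34092340 to 34095234 through H2-DMa, H2-DMb2, H2-DMb1 (34153072 to 34160230), H2-Ob, H2-Ab1 and H2-Aa (34282744 to 34287823, the minus strand) to H2-Eb1 at 34305867 to 34316674. H2-DMb1 and H2-DMb2 are near-identical neighbours, so the counting could split or drop reads between them, and their separate values are uncertain to that extent.

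Class II genes are known for a shared promoter layout, in which an X box that binds RFX proteins stands a fixed distance before a Y box, whose core ATTGG on either strand is the inverted CCAAT bound by NF-Y. RefSeq promoter windows on GRCm38.p6, from 250 bases before to 50 after a start site, were held for 7 of the 10 members as 8 windows, with H2-DMa having 2. Stretches of 48 bases that end on ATTGG and overlap no annotated exon are shown because most of the genes they precede differed together between cell types. Each is read 5′ to 3′ on the gene's strand. Capitals mark ATTGG and, before it, AAC or, in H2-Eb1, the 8-letter form AGNNACNG.
H2-Eb1 (chr17:34305765-34305812, plus strand, ATTGG beginning 59 bases before the start site): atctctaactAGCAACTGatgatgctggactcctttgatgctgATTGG
H2-Aa (chr17:34287867-34287914, minus strand, ATTGG 48 bases before): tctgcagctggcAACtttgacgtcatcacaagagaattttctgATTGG
H2-Ob (chr17:34238805-34238852, plus strand, ATTGG 57 bases before): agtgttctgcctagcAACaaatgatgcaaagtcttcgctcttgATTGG
H2-DMb2 (chr17:34145116-34145163, plus strand, ATTGG 90 bases before): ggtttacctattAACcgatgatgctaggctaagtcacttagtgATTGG
H2-DMa (chr17:34125277-34125324, plus strand, ATTGG 198 bases before): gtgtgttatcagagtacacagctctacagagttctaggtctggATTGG

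Across all 32851 windows, searched on both strands, AGNNACNG followed after 10 to 35 bases by ATTGG on the same strand was found in 1.32%. It was found in 2 of the 8 member windows, those of H2-DMb1 and H2-Eb1. The looser pattern seen in the stretches above was AAC followed after 25 to 28 bases by ATTGG. Searched on both strands too, it was found in 6 of the 8 member windows and in 2.49% of all windows. That pattern was chosen after the sequences were seen, so it carries no test. The 2 H2-DMa windows were the members without it, and the H2-DMa stretch ended on ATTGG with no AAC at that distance.

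After the filters, 44772 of 52800 barcodes remained, 7757 to 10280 per library, and the libraries held 89769386 to 167506186 UMIs (unique molecular identifiers, each taken as 1 captured RNA). The day 7 library stood apart in its making, with exactly 10000 barcodes and none below 4624 UMIs, whereas the other libraries began at 500 to 502. Pairs of libraries shared 16 to 31 barcodes, at most 0.374% of the smaller one. Cells were named one by one from marker lists that held none of the 10 genes, and the names below mean like that type by these markers. The counts were 8765 AMs, 6025 IMs, 1801 classical monocytes, 644 nonclassical monocytes, 893 type 2 conventional dendritic cells (cDC2s), 921 cDC1s, 1254 mature dendritic cells, 400 plasmacytoid dendritic cells (pDCs), 1593 B cells, 5000 T cells and 2713 neutrophils. The markers that follow were in the lists that named the cells, so their peaks were built in and are no check of the names. The airspace receptor Marco stood at 527 CPM (UMIs of a gene scaled to the common total that is usual for this unit) in AMs against 12.2 in IMs, and the complement chain C1qa at 3498 CPM in IMs against 18.6 in AMs. Cd209a, Xcr1, Ccr7 and Cd79a peaked in cDC2s, cDC1s, mature dendritic cells and B cells, at 526.5, 390, 2414 and 2848 CPM.

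Together, the 10 genes took the largest part of the RNA in conventional dendritic cells, with far less in AMs and, outside day 7, in T cells. In cDC2s they summed to 64990, 63640, 48000, 50890 and 57430 CPM in the sham, day 3, day 7, day 14 and day 28 libraries, so that 4.8 to 6.5% of all UMIs of these cells were class II presentation transcripts. cDC1s followed with 57780, 49420, 43540, 42100 and 36090 CPM in the same order of libraries, and B cells with 32810, 38850, 21710, 17620 and 20380. cDC2s were above cDC1s and cDC1s above B cells in 5 of 5 libraries.

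Mature dendritic cells, the Ccr7 cells that carry antigen to lymph nodes, overlapped with B cells. They summed to 18910, 34950, 26490, 20000 and 12230 CPM from sham to day 28, and B cells were higher in 3 of 5 libraries. Below them, classical monocytes, pDCs and IMs overlapped with each other. Classical monocytes held 8224 to 13480 CPM, pDCs 6675 to 16520 CPM over the 4 libraries with at least 20 cells, and IMs 2578 to 11670 CPM. AMs held 388, 1032, 2153, 1973 and 2787 CPM from sham to day 28, below classical monocytes throughout and below IMs in every library except day 28. That exception was lost under the stricter gate (2533 CPM in AMs, 2679 in IMs), with clusters (2225 and 2972) and with the mean of each cell's CPM (2776 and 3289).

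T cells and neutrophils, which are not known as class II presenting cells in mice, served as the background. T cells summed to 108, 293, 3805, 387 and 290 CPM and neutrophils to 182, 605, 3988, 1292 and 523 CPM from sham to day 28. The day 7 library was the highest by far in both, but its neutrophils were only 47 cells. With barcodes under 4624 UMIs left out of every library, neutrophils stood higher at day 14 (4485 CPM) than at day 7 (3988 CPM). T cells stayed highest at day 7 (3805 CPM). AMs were above T cells in the other 4 libraries, at 3.59-, 3.53-, 5.1- and 9.61-fold in sham, day 3, day 14 and day 28. At day 7 they were at 0.566 of the T cell level. The plot of summed levels by type and library shows this order. Counting intervals of these sums were narrow (95% exact Poisson, 384 to 393 CPM for sham AMs) and cover counting error only.

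**Figure D1:**
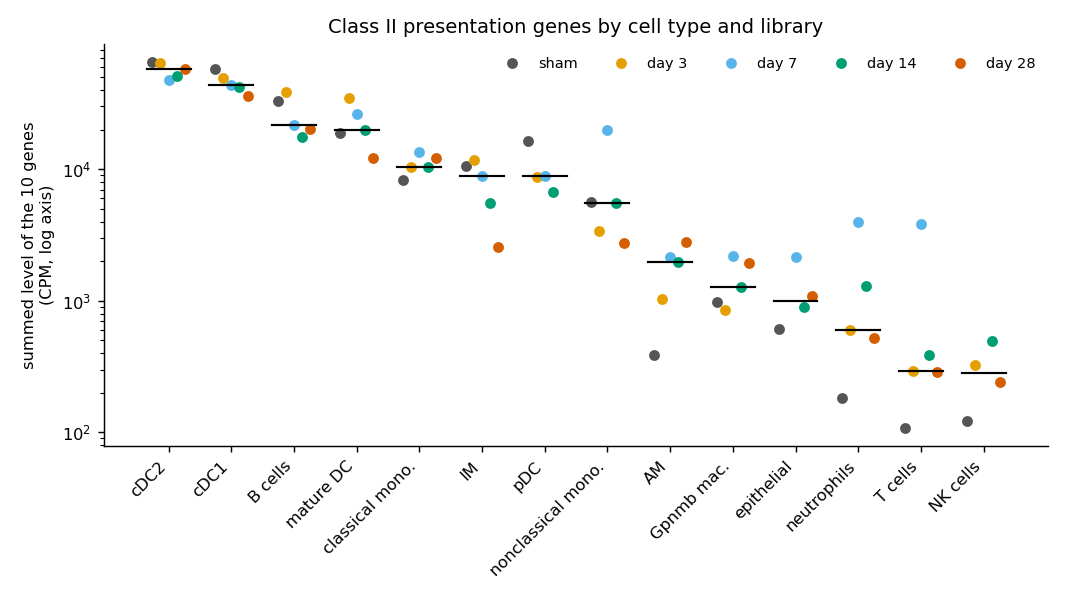
Summed level of the 10 class II presentation genes, in CPM on a log axis, by cell type, with 1 point for each library and cell types of at least 20 cells. cDC2s lie between 48000 and 64990 CPM, AMs between 388 and 2787 CPM, and T cells between 108 and 387 CPM apart from 3805 CPM at day 7. Black lines are medians of the libraries.

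The class II chains and Cd74 fell along the same order of types. H2-Aa in cDC2s stood at 12100, 11430, 8977, 10790 and 12470 CPM from sham to day 28, and in AMs at 40.8, 161, 365, 354 and 533 CPM. H2-Ab1, the beta chain that pairs with it, stood at 9709 to 13410 CPM in cDC2s and at 35 to 415 CPM in AMs. H2-Eb1 stood at 6824 to 10160 CPM in cDC2s and at 25.2 to 241 CPM in AMs. For each of these genes the libraries of the 2 types did not overlap, though the share of all genes without overlap was not counted.

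Cd74 was the most counted member in every type named here except sham AMs, where H2-DMa was. It stood at 31300, 26340, 20040, 19730 and 21990 CPM in cDC2s from sham to day 28, at 16950, 18770, 10350, 8192 and 9403 CPM in B cells, and at 96.5, 343, 926, 847 and 1286 CPM in AMs. The assay counts 3′ ends, so CPM of different genes were not divided by length.

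Summed UMIs were tested between pairs of types with edgeR's quasi-likelihood test, with the library as a block and Benjamini-Hochberg adjustment over all genes tested. All 10 members were higher in cDC2s than in AMs, where 23% of 10945 genes were called higher and 26.4% lower. The log2 difference was 5.77 ± 0.537 (SE, n = 5 libraries, adjusted p = 9.89e-06) for H2-Aa, 5.97 for H2-Ab1, 6.28 for H2-Eb1 and 5.59 for Cd74. The members had a median difference of 5.68 and all genes of -0.04. Against IMs, all 10 were again higher in cDC2s, with 2.83 ± 0.237 for Cd74 (adjusted p = 2.92e-05) and a median of 3.23, beside 18.1% of all genes called higher and 19% lower. These comparisons share the cDC2 samples and are not independent of each other.

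B cells were higher than AMs in 9 of 10 members, beside 29.9% of genes called higher and 35.2% lower. Cd74 differed by 4.72 ± 0.691 (adjusted p = 0.000188). H2-DMb1 was the exception, at 0.73 ± 0.366 (adjusted p = 0.106). Between the professional presenting cells, 3 members were higher in B cells than in cDC2s and 6 lower, where 24.6% of all genes were called higher and 24.8% lower. The lower ones included H2-Ab1 (-1.64 ± 0.165, adjusted p = 1.13e-05), H2-Eb1 (-1.31), H2-Aa (-1.07) and Cd74 (-0.83 ± 0.166, adjusted p = 0.00164). In a fit of all cell types together, H2-Aa, H2-Eb1 and Cd74 were no longer called (adjusted p of 0.0512 to 0.247).

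**Figure D2:**
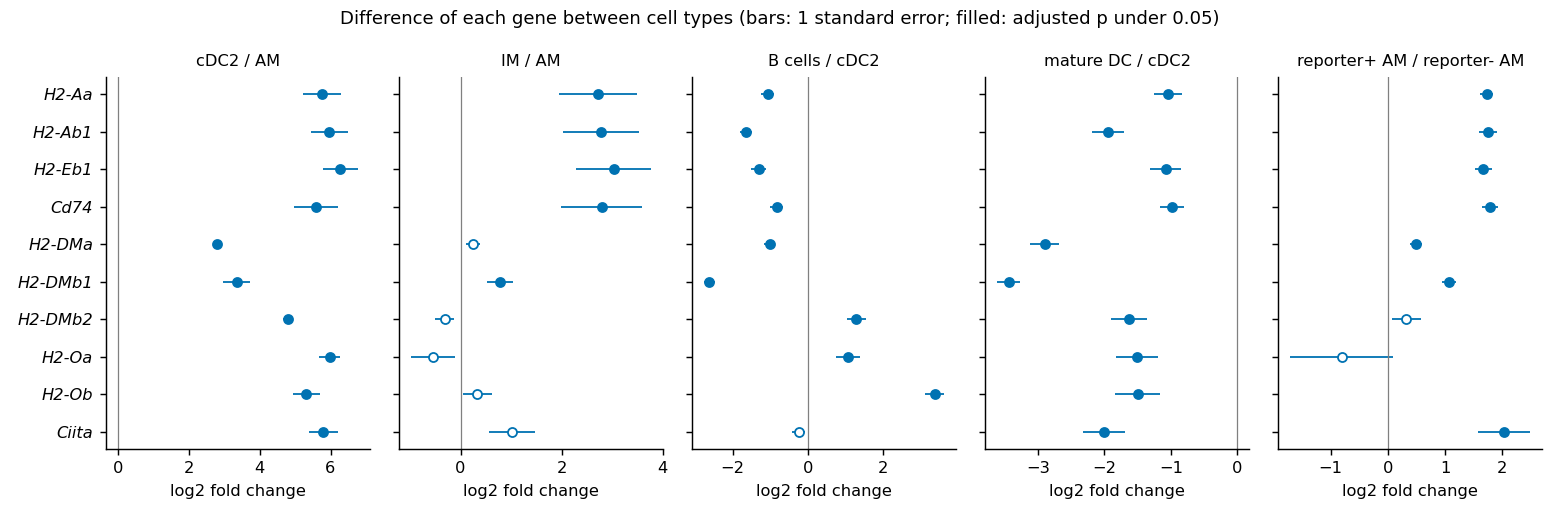
Log2 fold change of the 10 genes in 5 comparisons of cell types, 1 panel each, with bars of 1 standard error from edgeR and filled points for an adjusted p under 0.05. All 10 genes lie above 0 for cDC2 against AM and below 0 for mature dendritic cells against cDC2, and B cells against cDC2 have 3 genes above and 6 below 0 past the threshold.

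Between the conventional dendritic cells, the chains differed little. H2-Aa stood at 8044 to 11250 CPM in cDC1s and at 8977 to 12470 CPM in cDC2s. In cDC1s against cDC2s the differences were -0.17 ± 0.109 for H2-Aa, -0.28 ± 0.109 for H2-Ab1, -0.26 ± 0.115 for H2-Eb1 and -0.29 ± 0.103 for Cd74, with adjusted p of 0.0879 to 0.372, so none passed. 3 of 10 members passed, H2-Ob higher and H2-DMb2 and H2-Oa lower, beside 10.3% of genes called higher and 7.5% lower. The count was 6 without TMM factors (the scaling between libraries) and 7 with no filter on low counts, where H2-Ab1, H2-Eb1 and Cd74 were called lower. It was 5 under the stricter gate and 5 with clusters in place of gated cells, where 3 were higher and 2 lower.

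Mature dendritic cells were lower than cDC2s in all 10 members, beside 24.9% of genes called higher and 25.2% lower. The chains fell by about the same amount, with H2-Aa at -1.05 ± 0.21 (adjusted p = 0.00181), H2-Eb1 at -1.08 and Cd74 at -0.98, while H2-Ab1 was at -1.95 ± 0.241. In a fit of all cell types, H2-Aa, H2-Eb1 and Cd74 were no longer called (adjusted p of 0.118 to 0.172). pDCs, the dendritic cells known for interferon rather than presentation, were lower than cDC2s in 9 of 10 members over 4 libraries, beside 18.9% called higher and 18.8% lower. Their H2-Eb1 differed by -3.26 ± 0.17 (adjusted p = 4.51e-07) and their Cd74 by -2.41 ± 0.125.

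H2-DM, the exchange factor, followed a different order among the macrophages and dendritic cells. H2-DMa stood at 1012, 1154, 1006, 894 and 1001 CPM in cDC2s from sham to day 28 and at 711 to 1156 CPM in cDC1s, against 339 to 674 CPM in B cells. In mature dendritic cells it stood at 76.8, 148, 211, 110.5 and 74.7 CPM, below classical monocytes (274.5 to 453 CPM) in every library. H2-DMa in AMs was 126, 170, 174, 179 and 168 CPM, and in IMs 120, 189, 242, 210 and 114 CPM. The AM and IM values crossed, with AMs higher in sham and at day 28.

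The beta chain of H2-DM differed by cell type in which of its genes was used. H2-DMb1 stood at 1190, 2019, 723, 566 and 497 CPM in cDC2s and at 209, 219, 93.8, 98.4 and 82.8 CPM in B cells from sham to day 28. H2-DMb2 ran the other way, at 263, 263, 467, 351 and 287 CPM in cDC2s and at 1071, 1026, 634.5, 511 and 551 CPM in B cells. The libraries of cDC2s and B cells did not overlap for either gene, again without a count over all genes. B cells were lower than cDC2s in H2-DMb1 by -2.62 ± 0.147 (adjusted p = 1.73e-07) and higher in H2-DMb2 by 1.30 ± 0.259 (adjusted p = 0.00156).

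As a share of the UMIs of both beta genes, H2-DMb2 took 83.7, 82.4, 87.1, 83.8 and 86.9% in B cells. Mature dendritic cells were between, at 39.8 to 66.6%. The share was 18.1, 11.5, 39.3, 38.3 and 36.6% in cDC2s, 8.02 to 15.8% in cDC1s, 9.17 to 15.9% in AMs and 4.59 to 9.17% in IMs. In cDC1s H2-DMb2 was lower than in cDC2s by -1.43 ± 0.153 (adjusted p = 0.000234), while H2-DMb1 differed by 0.02 ± 0.181 (adjusted p = 0.972).

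Mature dendritic cells were further from cDC2s in H2-DMa and H2-DMb1 than in any chain, while H2-DMb2, at -1.63 ± 0.272, lay within the span of the chains. H2-DMa differed from cDC2s by -2.90 ± 0.214 (adjusted p = 1.79e-06) and H2-DMb1 by -3.44 ± 0.176 (adjusted p = 1.96e-07), beside -1.05 for H2-Aa and -1.95 for H2-Ab1. The difference between members was not itself tested. H2-DM UMIs per 100 chain UMIs were 2.83, 2.9, 3.44, 2.1 and 2.24 in mature dendritic cells from sham to day 28. They were 7.94, 10.2, 8.61, 6.23 and 5.35 in cDC2s and 10.8 to 13.1 in B cells, so the libraries of mature dendritic cells lay below those of both.

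In macrophages the same ratio moved with the library, in opposite directions. In AMs it was 187, 66.3, 33.3, 37.7 and 25.8 from sham to day 28. In IMs it was 5.62, 6.83, 10.4, 13.5 and 17.4 in the same order. Sham AMs therefore held more H2-DM UMIs than UMIs of the class II chains, and T cells, at 71.6 H2-DM per 100 chain UMIs in sham and 8.94 at day 7, did not.

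**Figure D3:**
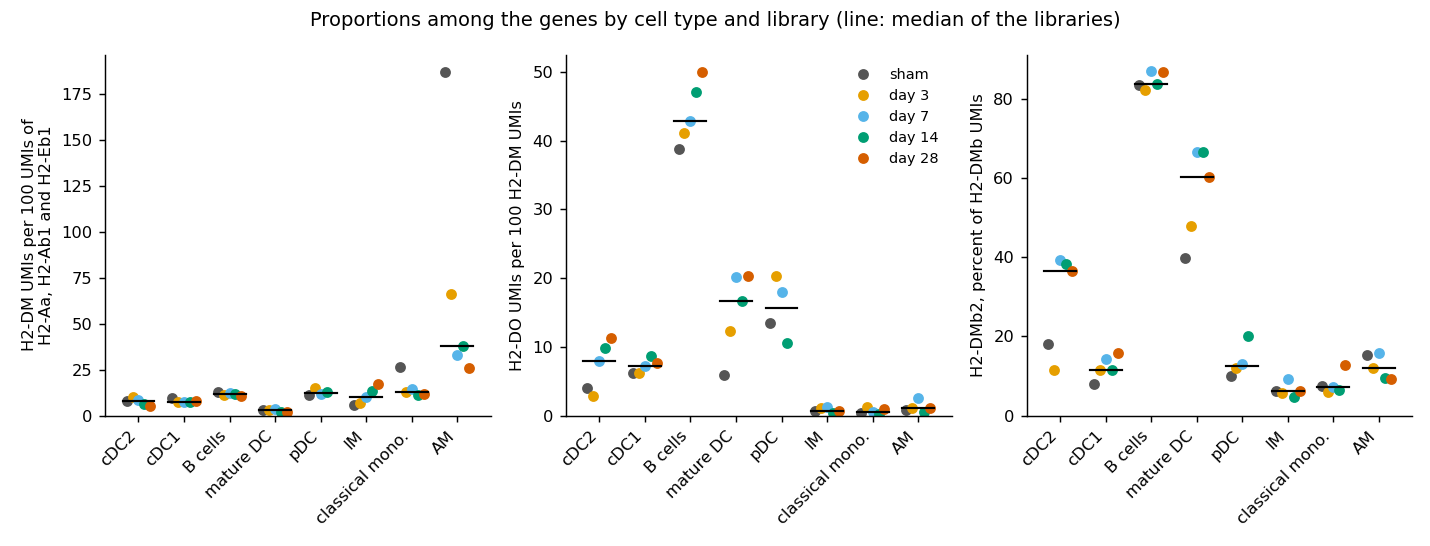
Ratios between members by cell type, with 1 point for each library and a line at the median: H2-DM UMIs per 100 chain UMIs, H2-DO UMIs per 100 H2-DM UMIs and the share of H2-DMb2 in both beta genes. B cells hold 38.8 to 50 H2-DO UMIs per 100 of H2-DM, and AMs fall from 187 to 25.8 H2-DM UMIs per 100 chain UMIs.

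H2-DO, the inhibitor, belonged mostly to B cells. H2-Ob stood at 412, 413, 313.5, 326 and 316 CPM in B cells from sham to day 28, at 111.5, 52.6, 76.7, 100.3 and 76.1 CPM in cDC1s and at 28.2, 16, 43.1, 40.6 and 52.8 CPM in cDC2s. T cells gave 4.27 to 10.3 CPM and AMs 0.527 to 2.54 CPM. The 3 presenting types did not overlap in H2-Ob, except that 52.6 CPM in cDC1s at day 3 lay under 52.8 CPM in cDC2s at day 28. How many of all genes part these types in this way was not counted.

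H2-Oa, its alpha chain, was less restricted. It stood at 265, 375, 204, 121 and 191.5 CPM in B cells, at 72.5, 80, 132, 138 and 148 CPM in cDC2s, at 50.9 to 63.8 CPM in cDC1s and at 86.4, 104, 86.8 and 39.8 CPM in pDCs. The B cell value of 121 CPM, at day 14, fell within the cDC2 range. B cells were higher than cDC2s by 3.38 ± 0.261 in H2-Ob (adjusted p = 1.6e-06) and by 1.08 ± 0.321 in H2-Oa (adjusted p = 0.0165). H2-Oa was not called without sham (0.83, adjusted p = 0.0542) or without day 3 (0.78, adjusted p = 0.0509).

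cDC1s and cDC2s used the H2-DO chains differently. H2-Ob was higher in cDC1s by 1.26 ± 0.205 (adjusted p = 0.00249) and H2-Oa lower by -0.94 ± 0.175 (adjusted p = 0.00518). H2-Oa made up 72 to 83.3% of H2-DO UMIs in cDC2s, 31.3 to 54.8% in cDC1s and 27.1 to 47.6% in B cells. In pDCs it made up 86.4 to 100%, and H2-Oa was the member in which pDCs were not called against cDC2s, at -0.53 ± 0.292 (adjusted p = 0.183). Without day 3 it was called (-0.82, adjusted p = 0.0433).

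Per 100 H2-DM UMIs, H2-DO took 38.8, 41.1, 42.9, 47.1 and 50 in B cells from sham to day 28. cDC2s had 4.08, 2.79, 7.99, 9.84 and 11.2, and cDC1s 6.14 to 8.66. Mature dendritic cells had 5.95, 12.3, 20.2, 16.6 and 20.3, above cDC2s in each library. AMs had 0.55 to 2.56 and IMs 0.38 to 1.25.

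Ciita was sparse, as transcripts of regulators often are in 3′ data. It stood at 65.7, 105, 83.5, 96.5 and 96.6 CPM in cDC2s, at 80.7, 72.2, 46.9, 67.8 and 80.1 CPM in B cells and at 44.8 to 91.7 CPM in cDC1s, and these types overlapped. B cells and cDC2s differed in Ciita by -0.24 ± 0.17 (adjusted p = 0.27), although the chains were lower in B cells. Mature dendritic cells stood at 17.2, 31.4, 34.3, 7.04 and 11.3 CPM, lower than cDC2s by -2.01 ± 0.314 (adjusted p = 0.000359). IMs stood at 3.49, 6.55, 7.22, 3.57 and 1.6 CPM and AMs at 0.286, 1.1, 3.71, 3.1 and 2.26 CPM, with 7 to 73 UMIs behind each AM value and 2 to 221 behind each IM value. T cells reached 7.74 CPM at day 7 and 0 to 2.66 CPM elsewhere, and AMs did not differ detectably from them in Ciita (0.12 ± 0.516, adjusted p = 0.851).

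Between the macrophage types, IMs were higher than AMs in 5 of 10 members, beside 19.7% of genes called higher and 21.5% lower. The differences were 2.72 ± 0.77 for H2-Aa (adjusted p = 0.0257), 2.78 ± 0.761 for H2-Ab1, 3.03 ± 0.745 for H2-Eb1, 2.79 ± 0.808 for Cd74 (adjusted p = 0.0281) and 0.78 ± 0.254 for H2-DMb1 (adjusted p = 0.0426). H2-DMa (0.24 ± 0.144, adjusted p = 0.213), H2-DMb2, H2-Oa, H2-Ob and Ciita (1.02 ± 0.456, adjusted p = 0.115) did not pass. H2-DMb1 was not called without sham, day 3, day 7 or day 14. Without day 7, 1 member was called, and Cd74 missed the threshold at 2.93 (adjusted p = 0.068). Without day 3, 1 was higher and H2-Oa lower, with Cd74 at 2.41 (adjusted p = 0.0807), and without day 14, 3 were called, with H2-Aa at 3.00 (adjusted p = 0.05). The 2 types moved in opposite directions over the libraries, since Cd74 in IMs was 5597, 4946, 4211, 2457 and 1252 CPM from sham to day 28 while in AMs it ran from 96.5 up to 1286 CPM.

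In AMs the chains and Cd74 were higher in every bleomycin library than in sham, while H2-DMa stayed within a narrow range. Cd74 stood at 3.55, 9.6, 8.78 and 13.3 times its sham level at day 3, 7, 14 and 28, and H2-Aa at 3.94, 8.95, 8.68 and 13.1 times. H2-DMa stood at 1.35, 1.38, 1.42 and 1.33 times and H2-DMb1 at 1.7, 2.04, 2.16 and 2.35 times. Each ratio compares 1 library with 1 library and has no replicate check.

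Taking genes that reached 20 CPM in sham or in the day compared, 4 of 6, 6 of 7, 5 of 6 and 5 of 6 members were at least 2-fold higher than in sham AMs on day 3, 7, 14 and 28, beside 3.7, 2.13, 3.45 and 3.34% of all such genes. A member can reach 20 CPM through the library in which it is high. The medians of these members were 1.87, 3.15, 2.89 and 3.41 on the log2 scale, and those of all such genes -0.0927 to 0.049. Ciita was below 20 CPM in AMs throughout.

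The background in other cells was also higher in these libraries than in sham. T cells had 4 of 5, 8 of 8, 4 of 5 and 4 of 5 members at least 2-fold over sham at day 3, 7, 14 and 28, beside 6.47, 8.17, 13.4 and 5.53% of genes. In sham T cells only Cd74 and H2-DMa (21.9 CPM) reached 20 CPM, so other members were counted only through the day compared. H2-Eb1 (7.96 CPM), H2-DMb1 (1.99) and H2-DMb2 (1.19) were so low in sham that reaching 20 CPM alone made them 2-fold higher. Cd74 in T cells was 31, 122, 1573, 139 and 105 CPM from sham to day 28. Cd74 in AMs was 3.11, 2.82, 0.589, 6.08 and 12.3 times that of T cells, and H2-DMb1 26.9, 21.3, 1.92, 9.65 and 19.1 times. The ratio for Cd74 was therefore larger at day 14 and day 28 than in sham, about the same at day 3 and below 1 at day 7. Across the libraries, AMs were higher than T cells in Cd74 (1.60 ± 0.591, adjusted p = 0.0413), H2-DMa (2.18 ± 0.298, adjusted p = 0.000334), H2-DMb1 (3.19 ± 0.531) and H2-DMb2 (1.65 ± 0.568), and lower in H2-Oa (-2.47 ± 0.339) and H2-Ob (-2.72 ± 0.355), beside 33.2% of genes called higher and 35.8% lower. Without day 7, 9 members were called, 7 of them higher, with H2-Aa at 1.98, H2-Ab1 at 2.07 and H2-Eb1 at 1.86. Cd74 and H2-DMb2 were no longer called without sham, day 3, day 14 or day 28 (Cd74 at 1.12 to 1.74, adjusted p of 0.0535 to 0.132) or with predicted doublets removed (Cd74 at 1.19, adjusted p = 0.196). For H2-DO the 2 background types disagreed. Neutrophils held 0 to 2.18 CPM of H2-Oa and 0 to 1.8 CPM of H2-Ob, and T cells 3.94 to 21.9 and 4.27 to 10.3 CPM. The lower H2-Oa and H2-Ob of AMs against T cells therefore do not place AMs below background.

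Markers of other types moved in AMs as well. The 10 IM markers summed to 57, 228, 528, 731 and 494 CPM in AMs from sham to day 28, against 17650 to 35170 CPM in IMs themselves, with no marker at 0. The 9 cDC2 markers summed to 42.1, 51.3, 105, 47.8 and 51 CPM, with 1 marker at 0 at day 3, and the 9 B cell markers to 3.3 to 22.2 CPM, with 1 at 0 at day 14. The 12 AM markers summed to 22920, 19450, 16890, 14580 and 17080 CPM. Their part in the higher class II transcripts of AMs was not tested. Barcodes that scored on another lineage's markers had been left out by the gate. With predicted doublets removed, sham AMs summed to 276 CPM, day 7 AMs to 1318 and day 28 AMs to 2656 CPM.

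**Figure D4:**
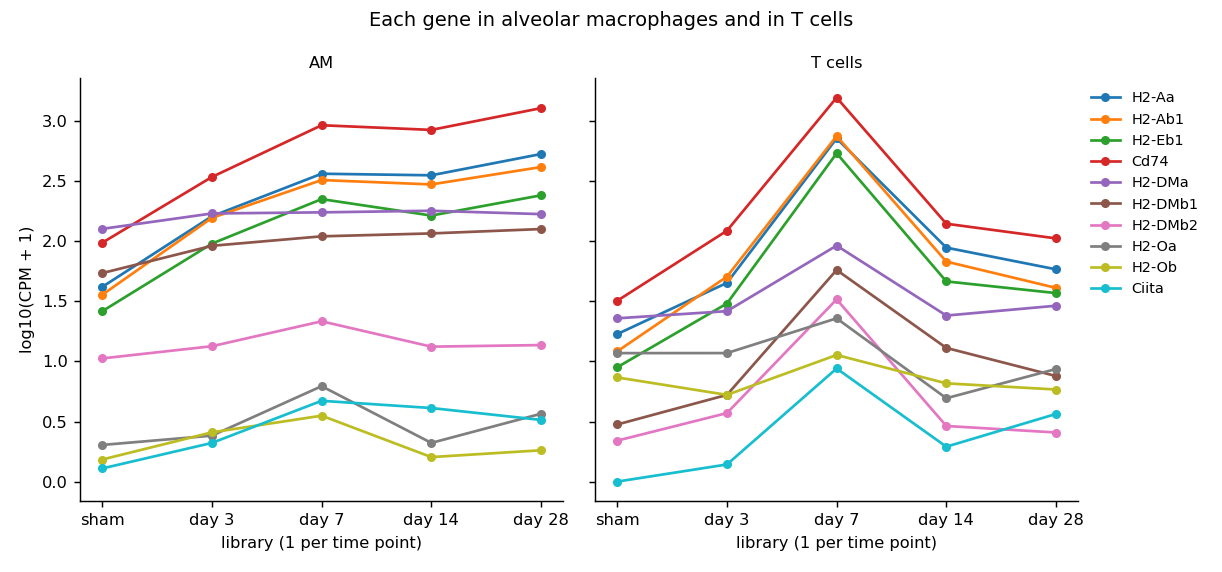
Level of each of the 10 genes, as log10(CPM + 1), in AMs (left) and in T cells (right) from sham to day 28, with 1 library per point. The chains and Cd74 of AMs go from between 25.2 and 96.5 CPM in sham to between 241 and 1286 CPM at day 28, H2-DMa lies between 126 and 179 CPM, and the day 7 T cells lie above the AMs for the chains and Cd74.

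The difference between AM libraries was uneven between cells. After each cell was thinned to 2000 UMIs, 7.21, 28.2, 40.5, 43.1 and 55.5% of AMs held a Cd74 UMI from sham to day 28, at median depths of 12570 to 20780 UMIs before thinning. T cells, at median depths of 3798 to 7257 UMIs, gave 4.9, 22.2, 30.2, 21.8 and 17.7%, and neutrophils, at 2167 to 6866 UMIs, 14.8, 35.5, 31.9, 34.6 and 33.5%. The sham share of AMs (95% exact binomial interval 6.5 to 7.97%) lay under that of neutrophils and overlapped that of T cells (3.06 to 7.39%). The day 3 share lay between T cells and neutrophils. AMs were deeper than both before thinning, and free RNA can weigh more in shallow cells at equal UMIs. These shares therefore cannot show whether sham or day 3 AMs express Cd74. In sham, 33919 member UMIs were counted in 5067 AMs, 272 in 442 T cells and 491 in 950 neutrophils. Without thinning, 80.4% of day 28 AMs held a Cd74 UMI.

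Of 2000 UMIs, the median AM held 0, 1, 1, 1 and 2 member UMIs from sham to day 28, the upper quartile 1, 2, 3, 4 and 7, and the 90th percentile 2, 3, 8, 11 and 16. The upper end thus moved more than the middle. H2-DMa behaved otherwise. A H2-DMa UMI was found in 22.8, 24.7, 27.5, 29.9 and 29% of AMs, against 4.43, 4.7, 7.92, 4.34 and 4.61% of T cells and 2 to 12.8% of neutrophils, so its share in AMs was above background in each library, sham included.

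Some AMs carry the tdT reporter, which marks descent from Ms4a3-expressing precursors and was counted as the feature RFP. A cell was called reporter-positive at 3 or more RFP UMIs of 2000, a limit set after the background was seen, and cells with none were called negative. T cells passed it in 0.233 to 3.88% by library, the highest at day 14. AMs passed it in 0.366, 0.881, 0.427, 14.9 and 6% from sham to day 28. Classical monocytes passed it in 40.4, 35.3, 9.12, 16.4 and 8.57% in the same order. Most of these monocytes did not pass, so negative AMs and IMs cannot be taken as cells of other descent. At least 20 positive AMs were present only at day 14 and day 28, so the comparison rests on 2 libraries.

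Reporter-positive AMs held more class II transcripts than reporter-negative AMs of the same library. The members summed to 4455 against 1066 CPM at day 14 (4.18-fold, 129 and 488 cells) and to 5281 against 2484 CPM at day 28 (2.13-fold, 71 and 920 cells). 7 of the 9 members tested were higher, beside 2.11% of genes called higher and 2.74% lower. Cd74 differed by 1.79 ± 0.138, H2-Aa by 1.73, H2-Ab1 by 1.75, H2-Eb1 by 1.67, H2-DMb1 by 1.07, H2-DMa by 0.50 ± 0.104 and Ciita by 2.03 ± 0.462, while H2-DMb2 (0.33 ± 0.253) and H2-Oa did not pass and H2-Ob was too low to test. The adjusted p of 3.75e-10 for Cd74 comes from 1 residual degree of freedom per gene with the spread borrowed across genes, and the count fell to 2 with DESeq2 and to 0 without the library block.

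The reporter split also moved other markers. The 12 AM markers summed to 9190 CPM in positive and 16320 CPM in negative AMs at day 14, and to 15980 and 17190 CPM at day 28. The 6 Gpnmb markers of injury-associated macrophages summed to 10330 against 5084 CPM and to 8174 against 4059 CPM. The 10 IM markers summed to 750 against 682 CPM at day 14, with 1 at 0 in positive cells, and to 483 against 487 CPM at day 28, with 3 at 0, so they differed little between the positive and negative AMs. The part of the AM and Gpnmb markers in the class II difference was not tested. Among reporter-negative AMs alone, Cd74 stood at 93.4, 339, 921, 398 and 1129 CPM from sham to day 28.

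AMs that also carry Gpnmb, Mmp12 and related injury markers (1658 cells) were not called higher in the chains. Cd74 stood at 436, 332, 925, 555 and 997 CPM in them from sham to day 28. Against AMs low in these markers, with intermediate barcodes left out, Cd74 differed by 0.34 ± 0.307 (adjusted p = 0.484) and H2-Aa by 0.18 ± 0.315. Ciita (-1.15 ± 0.293, adjusted p = 0.0172), H2-DMb2 (-0.51 ± 0.132) and H2-DMa (-0.40 ± 0.105, adjusted p = 0.0189) were lower, 3 of 10 members, beside 12.7% of genes called higher and 10.3% lower. None was called without the library block, in the fit of all cell types, or without day 28.

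IMs ran opposite to AMs, with less class II in the later libraries. H2-Aa in IMs stood at 1842, 2224, 1602, 1111 and 463 CPM from sham to day 28, H2-Ab1 at 1377, 2539, 1508, 926 and 364 CPM, and H2-Eb1 at 1466, 1521, 1081, 686 and 300.2 CPM. Of 6 members at 20 CPM or more, 0, 0, 2 and 4 were at least 2-fold below sham at day 3, 7, 14 and 28, beside 10.4, 8.7, 11.1 and 14% of genes. The sham value rests on 44 cells. The total of 6 became 13 with clusters and 10 with the mean of each cell's CPM. Sham IMs summed to 20400 CPM with clusters, 15860 with the mean of each cell's CPM and 13020 under the stricter gate, above day 3 IMs (12470, 11500 and 12120 CPM), whereas as reported they were below them (10550 and 11670 CPM).

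The make-up of the IM gate changed alongside. IMs at or above a Gpnmb score limit made up 9.09, 29, 51.5, 71.6 and 91.3% from sham to day 28, and 871 of the 6025 IMs lay within 0.05 of that limit. Among IMs below the limit, the members summed to 13320, 15470, 15410, 12980 and 13180 CPM, and Cd74 to 7076, 6465, 7284, 5657 and 5961 CPM. Among IMs above it they summed to 4399, 4325, 3608 and 2049 CPM from day 3 to day 28, with too few sham cells to count. The sum below the limit thus spanned 12980 to 15470 CPM over all 5 libraries, while the sum of all IMs spanned 2578 to 11670 CPM. The part of the make-up of the gate in the IM sums was not tested.

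IMs with a UMI of Lyve1, Folr2 or Cd163 after thinning to 2000 UMIs, markers of vessel-associated tissue macrophages, were lower in class II than other IMs. Their members summed to 2119, 3133, 5008, 3024 and 1322 CPM from sham to day 28, against 14340, 12500, 9241, 5722 and 2676 CPM. The groups of a library were apart by 6.77-fold in sham and by 1.85- to 3.99-fold after bleomycin. The sham groups held only 20 cells each, the fewest allowed, at median depths of 8347.5 and 16254.5 UMIs. Cd74 was lower by -1.39 ± 0.255 (adjusted p = 0.031), H2-Aa by -1.53 ± 0.314 (adjusted p = 0.0484) and H2-Ab1 by -1.79 ± 0.353 (adjusted p = 0.0422). H2-Eb1 at -1.63 ± 0.441 did not pass (adjusted p = 0.125), nor did H2-DMa, H2-DMb1, H2-DMb2 and Ciita. These were 3 of 8 members tested, beside 1.48% of genes called higher and 0.46% lower. The count was 0 without day 3, without day 7, without day 28 and without the library block, 1 without day 14, 6 with DESeq2 and 7 with no filter.

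By the reporter, IMs ran opposite to AMs. Reporter-positive IMs summed to 11630, 6548, 4688 and 1923 CPM from day 3 to day 28, and negative IMs to 14120, 9638, 8041 and 2696 CPM, lower in the positive cells in 4 of 4 libraries at 0.824, 0.679, 0.583 and 0.713 of the negative level. No member passed in edgeR's quasi-likelihood test. H2-Eb1 differed by -0.63 ± 0.084 (adjusted p = 0.0862), and H2-Aa (-0.55), H2-Ab1 (-0.62) and Cd74 (-0.50 ± 0.075) had adjusted p of 0.118. Of all 11018 genes, 0.00908% were called higher and 0% lower, while 355 were higher and 335 lower at an unadjusted p under 0.05. DESeq2 called 4 members lower, and the count was also 4 without day 3. The 6 Gpnmb markers summed to 16950 against 13670 CPM at day 7 and 30240 against 23940 CPM at day 14 in positive against negative IMs, and the 9 cDC2 markers to 108 against 200.1 and 58.4 against 84.4 CPM, whose part in the difference was not tested.

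With intermediate barcodes left out, IMs were lower than classical monocytes in 4 of 10 members, beside 7.15% of genes called higher and 7.21% lower. They were Ciita (-1.70 ± 0.327, adjusted p = 0.0076), H2-DMb1 (-1.16 ± 0.179, adjusted p = 0.00266), H2-DMa (-1.06 ± 0.205) and H2-DMb2 (-1.31 ± 0.272). Cd74 was not called (-0.51 ± 0.256, adjusted p = 0.226). In the monocytes Cd74 stood at 4095, 4678, 6307, 4340 and 5066 CPM from sham to day 28. As the ratio of highest to lowest, this range was narrower than in either macrophage type. No library took the count of 4 away when left out, but it was 2 without the library block and 2 under the stricter gate.

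Summed over the members, dendritic cells and B cells spanned narrower ranges over the libraries than AMs and IMs did, although single members did not always. Ranges here are ratios of the highest to the lowest library, not differences in CPM. In cDC2s, H2-DMb1 ran from 2019 CPM at day 3 down to 497 CPM at day 28 and was the member with the widest range there by that ratio. Mature dendritic cells were highest at day 3, with Cd74 at 11170, 15960, 12360, 9048 and 5714 CPM from sham to day 28 and 6 of 9, 4 of 9, 1 of 8 and 0 of 7 members at least 2-fold higher than in sham, beside 9.23, 3.57, 5.72 and 4.1% of genes. That total of 11 became 20 with predicted doublets removed and 7 without day 7. B cells had 0, 1, 4 and 1 of 10 members at least 2-fold lower than in sham at day 3, 7, 14 and 28, beside 4, 6.69, 5.29 and 4.31% of genes, with H2-DMb1 at 209, 219, 93.8, 98.4 and 82.8 CPM. That total of 6 became 2 with the mean of each cell's CPM and 4 with the UMI floor of the day 7 library. Fewer transcripts per cell and a change in which cells the gate took cannot be told apart in such sums.

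**Figure D5:**
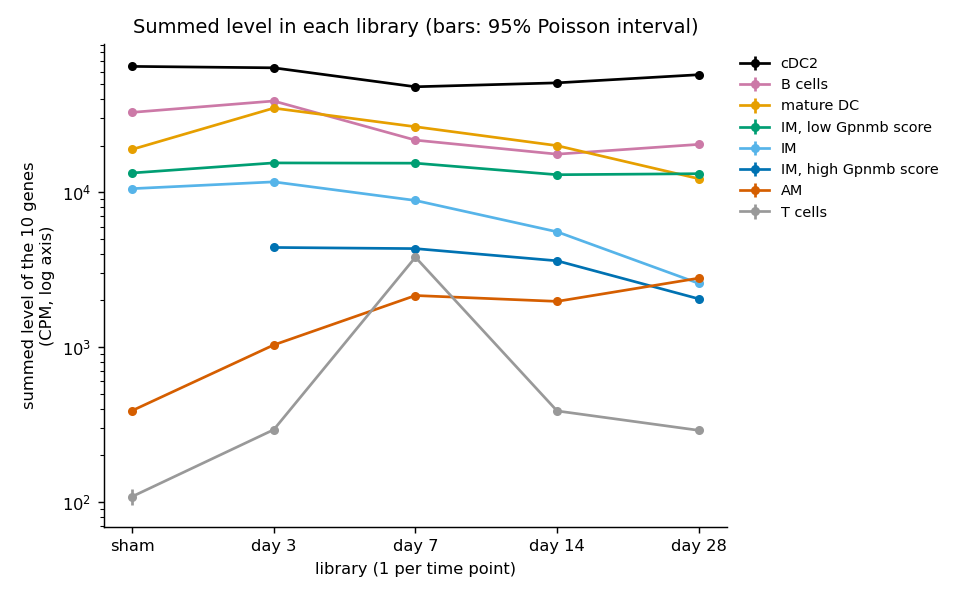
Summed level of the 10 genes, in CPM on a log axis, by library from sham to day 28, with a line for each cell type and bars of 95% Poisson intervals. AMs go from 388 to 2787 CPM, IMs from 10550 to 2578 CPM while IMs below the Gpnmb limit stay between 12980 and 15470 CPM, and T cells peak at 3805 CPM at day 7.

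Shares of cells with a UMI set the family's restricted members apart from its broad ones. After thinning to 2000 UMIs, 98.1 to 100% of cDC2s and 99.2 to 100% of B cells held Cd74, whereas 57.5, 76.1, 72.3, 63.5 and 47.7% of IMs did. H2-Ob was found in 57.7, 54.4, 41.4, 57.3 and 54.1% of B cells from sham to day 28, in 11.1 to 22.3% of cDC1s, 0 to 6.28% of cDC2s and 0.65 to 1.87% of T cells. H2-DMb2 was found in 62.1 to 87.3% of B cells and 31.5 to 51.5% of cDC2s. Ciita was found in 10.5 to 15.7% of B cells, 9.8 to 22.6% of cDC2s and 0 to 0.77% of AMs.

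Member UMIs were spread unevenly over IMs. Of 2000 UMIs, the lower quartile of IMs held 1, 2, 1, 1 and 0 member UMIs from sham to day 28, the median 2, 6, 6, 3 and 1, and the upper quartile 28.2, 27, 28, 13 and 5. The upper quartile was thus far above the median in each library. B cells had medians of 69, 82, 46, 39 and 44 and cDC2s of 98 to 129.5.

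Further genes of the pathway came from lists chosen with earlier results of these data known. Of 20 regulators, 9 of 19 tested were higher and 3 lower in cDC2s than in AMs (23 and 26.4% of all genes), led by Zbtb46 (6.17 ± 0.325), which was also a marker of the cDC2 gate, Irf4 (5.24 ± 0.306) and Jak2 (2.69 ± 0.147), with Prdm1, a repressor of Ciita, lower by -2.86 ± 0.359. In IMs against AMs, 4 of 19 were higher and 4 lower, near the 19.7 and 21.5% of all genes, with Rfx5, the X box protein, at -0.84 ± 0.176 (adjusted p = 0.00785) and Rfxap at 0.62 ± 0.133. In reporter-positive AMs none of 18 regulators was called in either direction, near the 2.11% of all genes called higher and 2.74% lower there.

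Of the endosomal genes, 3 of 16 were higher and 10 lower in cDC2s than in AMs (23 and 26.4% of all genes), with the cathepsin inhibitor Cst3 at 3.32 ± 0.188 and the thiol reductase Ifi30 at 2.25 ± 0.151, but the protease Ctsd at -4.31 ± 0.156. In IMs against AMs, 12 of 16 were higher and 3 lower (19.7 and 21.5% of all genes), with Lgmn at 2.31 ± 0.158 and Ctsb at 2.17 ± 0.133. In mature dendritic cells against cDC2s, 10 of 16 were higher and 2 lower (24.9 and 25.2% of all genes). March1, the ligase known to send class II molecules to degradation, was lower there by -2.91 ± 0.218 (adjusted p = 1.98e-06).

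In mature dendritic cells, where the class II members were lower than in cDC2s, most genes for costimulation and class I presentation were higher, beside 24.9% of all genes higher and 25.2% lower. 8 of 11 costimulatory genes tested were higher than in cDC2s and 1 lower, with Tnfsf4 at 5.26 ± 0.433, Cd200 at 4.90 ± 0.213 and Cd274 at 3.36 ± 0.242, and 15 of 18 class I genes were higher and 1 lower, with Psme2 at 2.95 ± 0.152. Between cDC1s and cDC2s, 13 of 18 class I genes were higher in cDC1s and none lower, beside 10.3 and 7.5% of all genes, with Psmb9 at 1.56 ± 0.156 and Tap2 at 1.33 ± 0.128. H2-Eb2, a class II beta gene outside the 10 and a paralog of H2-Eb1, so that reads of the pair may be split, was higher than in cDC2s by 3.84 ± 0.448 in B cells and by 4.51 ± 0.458 in mature dendritic cells.

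The genes whose levels were most like the chains and Cd74 were sought over 73 units of cell type and library with at least 50 cells, by Pearson's r of log2(CPM + 10) with their mean. Cd86, a costimulatory ligand of T cells, came first at r = 0.884, followed by Plekho1 (0.872), Ly86 (0.836), Cd83 (0.835), Fgd2 (0.831), Ifi30 (0.802), Cbfa2t3 (0.79), Irf5 (0.781), Napsa (0.757) and Tnfsf9 (0.749). Among the members, Ciita stood at 0.859, H2-DMa at 0.849, H2-Oa at 0.7 and H2-Ob at 0.615. The units share libraries, depth and free RNA, so these are descriptions.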

How the data were processed

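UMI counts of 5 libraries of droplet single-cell RNA sequencing (3′ kit, v3.1) were used as the authors deposited them, made with Cell Ranger 6.0.0 on mm10 per the labels, without normalization. The study's stated limits were applied again: 300 to 8000 detected genes, between 800 and 60000 UMIs, and less than 15% of UMIs from mitochondrial genes. Each barcode was scored from 0 on lists of marker genes, none a member, and took the best list at a score of at least 0.2 and a lead of 0.05. Barcodes scoring 0.25 or more on another lineage were left out as mixed (3606), and predicted doublets were removed only as an alternative. Left out of both types as intermediate were 1315 barcodes with IM and monocyte scores of at least 0.2 within 0.15 of each other. So were 2661 barcodes with AM markers and Gpnmb scores from 0.4 to 0.5, between AMs and Gpnmb macrophages. UMIs were summed per type and library with at least 20 cells and tested with edgeR 4.0.16 in R 4.3.3 (quasi-likelihood test, TMM, filterByExpr, library as block), all genes adjusted together. A call is an adjusted p under 0.05. The scripts were tested on simulated data. Intervals are 95% and cover counting error only. Alternatives were DESeq2 1.42.0, no TMM, no filter, no block, other gates, limits and doublet removal, Leiden clusters (scanpy 1.11.5), 1 fit of all types, and each library left out.

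The members, marker lists and pathway lists were chosen with earlier results of these data known, and the gate and reporter limits after the scores were seen. The day 7 library was left out as an alternative chosen after seeing the data. All 10 members are named where tested. Of the pathway lists, the 3 genes with the largest change in each direction among those called could be named. The most alike genes are the 10 highest by Pearson's r, members left out. The sum of a type moves with free RNA and with which cells the gate takes. All p-values measure the spread between libraries of different days.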

Additional observations from a re-analysis of the deposited data

Results flagged for a closer look

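Of 14 cell types looked at over the 5 libraries, the summed level of the 10 genes had a library far from the others in 2, both times day 7. Chance sets about 1 group in 20 apart in this way. In nonclassical monocytes day 7 stood at 19690 CPM (30 cells), against 5625, 3400, 5523 and 2730 CPM in sham, day 3, day 14 and day 28. In those cells the 10 IM markers summed to 3650 CPM at day 7, with 2 markers at 0, and to 1311 to 4148 CPM in the other libraries, and the 9 cDC2 markers to 203 CPM, with none at 0, against 32 to 78.6 CPM. Under the stricter gate day 7 stood at 11500 CPM, above 2766 to 4700 CPM in the other libraries. With clusters it stood at 8785 CPM, below 13410 CPM at day 3, and no longer apart. In T cells day 7 stood at 3805 CPM, against 108 to 387 CPM elsewhere. Their 9 cDC2 markers summed to 202 CPM at day 7, with none at 0, against 37.4 to 62.4 CPM, and 5.78% of thinned T cells held at least 20 member UMIs at day 7, against 0 to 0.121% elsewhere. With predicted doublets removed the day 7 T cells summed to 3565 CPM, under the stricter gate to 2317 CPM, with the mean of each cell's CPM to 2211 CPM and with clusters to 8429 CPM. The part of these markers in either value was not tested.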

How the results depend on the processing

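Counts of members called that stayed within 1.5 times their value under the alternatives run, leaving out each library included, were those for cDC2s against AMs, B cells against AMs, cDC2s against IMs, B cells against cDC2s, mature dendritic cells against cDC2s, pDCs against cDC2s and AMs against T cells. For the other comparisons the cause was not tested. IMs against AMs: 5 members as reported, 9 with clusters in place of gated cells, and 1 to 5 when a library was left out. cDC1s against cDC2s: 3 as reported, 6 without TMM factors, 7 with no filter on low counts, 5 under the stricter gate, 5 with clusters, where the balance turned to 3 higher and 2 lower, and 3 to 4 without a library. IMs against classical monocytes: 4 as reported, 2 without the library block and 2 under the stricter gate. Gpnmb macrophages against AMs: 3 as reported, 0 without the block, 1 with predicted doublets removed, 1 under the stricter gate, 1 with clusters, 0 in the fit of all cell types and 0 to 4 without a library. Lyve1 Folr2 IMs against other IMs: 3 as reported, 6 with DESeq2, 7 with no filter, 0 without the block, 5 at a mitochondrial limit of 10%, 0 with clusters and 0 to 3 without a library. Reporter-positive AMs: 7 as reported, 2 with DESeq2 and 0 without the block. Reporter-positive IMs: 0 as reported, 4 with DESeq2, 5 with no filter, 1 with doublets removed, 8 with clusters and 0 to 4 without a library. Among single genes and other values, 1903 kept direction and side of the threshold, 97 were weaker, 81 stronger and 10 moved. H2-Oa in IMs against AMs turned from -0.54 to 2.14 with clusters (adjusted p = 0.0255). The share of AMs with Cd74, as the median of the libraries, moved from 40.5% to 80.4% without thinning and to 22.1% at 2 or more UMIs. Without day 7, 12 member values of T cells and 7 of mature dendritic cells were at least 2-fold over sham. Clusters could not be run for IMs against classical monocytes, which formed no cluster, leaving out a library could not be run for reporter-positive AMs, with 2 libraries, and the fit of all cell types was not run for the Lyve1 and reporter splits. The library block pairs the cell types of a library in each fit reported, and the values without it stand above. Days could not be paired, with 1 library each. Depth limits Ciita, H2-Oa and H2-Ob in macrophages.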
